A study of Homo sapiens with 2 samples.

Results

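Cadherins of Huh7 cells, a human hepatocellular carcinoma cell line, were compared between Huh7-NC, transfected with a control siRNA, and Huh7-si, transfected with an siRNA against BRF2. The genes were chosen by their names: the numbered CDH, CDHR and PCDH genes, FAT1 to FAT4, CELSR1 to CELSR3, the desmogleins (DSG), the desmocollins (DSC), DCHS1 and DCHS2. The rule matched 55 of the 61541 genes measured by RNA-seq. BRF2 is a subunit of the initiation factor that RNA polymerase III uses at a small set of promoters, and the knockdown was made to ask which genes differ when it is reduced. There was 1 library for each of the 2 groups, so no spread between replicates could be estimated, no test was made, and the group cannot be told apart from the library. The cadherins were picked as a group with results of these libraries known, so all their values are a description and support nothing further.

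Cadherins are membrane proteins that hold cells together through extracellular domains stiffened by calcium. Classical cadherins bind the same cadherin on the next cell and anchor to actin through catenins at adherens junctions, whereas desmogleins and desmocollins anchor to keratin filaments at desmosomes. FAT, Dachsous and Flamingo (CELSR) proteins are very large cadherins that pass signals on growth and on planar polarity between neighbouring cells. Hepatocytes normally carry both E-cadherin (CDH1) and N-cadherin (CDH2), and their desmosomes use DSG2 and DSC2.

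The deposited table gave, for each library, an estimated count of reads per gene and its TPM, an abundance that allows for the length of the gene. Huh7-NC held 22852648 reads on 22683 genes, and Huh7-si held 22089016 reads on 24735 genes. Reads scaled to these totals are given as CPM (counts scaled to 1000000 reads), and a fold change is the CPM of Huh7-si over that of Huh7-NC, shown as its log2 with a 95% exact Clopper-Pearson interval in parentheses. The intervals cover counting error only and not the spread between replicates. They treat reads as independent, which reads without molecular identifiers are not, so they may be too narrow even for counting error. A count of 0 allows up to 3 reads, or 0.131 CPM in Huh7-NC against 0.136 CPM in Huh7-si. BRF2 itself had 1281 reads in Huh7-NC against 364 in Huh7-si (log2 fold change -1.77, -1.94 to -1.60), or 70.6% lower in the library labelled as its knockdown. All 10 hepatocyte markers were read in both libraries, with a summed level of 20101 and 20426 CPM. Single markers differed more than this sum, with log2 fold changes from -0.83 (APOA1) to 1.04 (APOB). The interval lay wholly above 0 for 3 of them and wholly below 0 for 7. Of 6 mesenchymal markers, decorin (DCN) was at 0, and the list summed to 44.9 CPM in Huh7-NC against 101 CPM in Huh7-si, mainly through COL1A2. The 4 endothelial markers summed to 2.67 and 2.99 CPM, with KDR and TEK at 0, and the 4 leukocyte markers to 10.7 and 11.2 CPM, with CD3E at 0. The part of the mesenchymal difference in the cadherin values below was not tested.

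Start-site windows, 250 bases before to 50 after an annotated RefSeq start (GRCh38.p14), were available in the reference set used for 36 of the 55 genes. They were searched for the E-box CACCTG, which reads CAGGTG from the other strand. ZEB and Snail repressors are known to act on E-cadherin through this element. No other motif was searched. CDH1, CDH6, CDH17, CDH24, CELSR1 and FAT4 were among the genes without a window in that set, so E-cadherin itself was not searched. The match stood in 24.2% of the 33 windows of cadherins with at least 10 reads, and in 20.6% of all 35116 windows. The 4 windows below are those of DSG2, DSC2 and CDH4 with a match, shown because these genes were at least 2-fold higher in Huh7-si on at least 20 reads over both libraries, and 1 of the 2 windows of CDH2, the cadherin with the most reads, neither of which has a match. Each is read 5′ to 3′ on the strand of its gene, and capitals mark the E-box. DSG2 lies at chr18:31497927-31498226 on the plus strand, with matches beginning at -232 and -116 relative to the start. DSC2 lies at chr18:31102372-31102671 on the minus strand, with a match at -156, and has a second window without one. CDH4 lies at chr20:61499171-61499470 on the plus strand, with a match at -16, and also has a second window without one. CDH2 lies at chr18:28177081-28177380 on the minus strand.
DSG2: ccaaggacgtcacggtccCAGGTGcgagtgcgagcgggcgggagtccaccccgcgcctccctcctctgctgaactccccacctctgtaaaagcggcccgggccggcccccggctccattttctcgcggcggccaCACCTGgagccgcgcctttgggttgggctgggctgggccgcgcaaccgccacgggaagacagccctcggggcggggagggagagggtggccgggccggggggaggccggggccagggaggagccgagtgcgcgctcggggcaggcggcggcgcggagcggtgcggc
DSC2: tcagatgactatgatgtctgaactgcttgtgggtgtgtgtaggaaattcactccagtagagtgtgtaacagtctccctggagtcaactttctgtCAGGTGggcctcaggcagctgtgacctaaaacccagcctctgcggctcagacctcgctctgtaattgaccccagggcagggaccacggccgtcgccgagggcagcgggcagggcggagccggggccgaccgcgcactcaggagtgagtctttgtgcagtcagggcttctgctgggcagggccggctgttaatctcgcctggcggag
CDH4: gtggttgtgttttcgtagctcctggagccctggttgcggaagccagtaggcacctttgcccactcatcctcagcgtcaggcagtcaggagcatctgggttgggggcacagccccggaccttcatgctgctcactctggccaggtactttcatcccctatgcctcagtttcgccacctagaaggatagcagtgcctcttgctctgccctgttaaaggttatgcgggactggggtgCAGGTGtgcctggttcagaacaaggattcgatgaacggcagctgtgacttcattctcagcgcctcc
CDH2: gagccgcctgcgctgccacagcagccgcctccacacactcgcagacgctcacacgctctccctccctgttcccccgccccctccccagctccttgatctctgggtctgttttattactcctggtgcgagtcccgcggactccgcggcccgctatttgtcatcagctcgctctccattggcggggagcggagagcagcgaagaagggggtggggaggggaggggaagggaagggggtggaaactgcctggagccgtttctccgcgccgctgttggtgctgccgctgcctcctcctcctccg
Among the cadherins with at least 10 reads and a window, DSG1, CDHR2, PCDH1 and CDH23 also held the match, and DSG1, with 19 reads, was past 2-fold too. CDHR2 was at 1.08-fold and CDH23 at 0.98-fold between the libraries, so the match stood both in windows of cadherins past 2-fold and in windows of cadherins near the same level. CDH9, CDH26, CELSR3, DCHS2, DSG3, FAT1, PCDH9, PCDH12 and PCDH17 were past 2-fold too, and none of their windows held the match.

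Nearly all cadherins with enough reads to compare were higher in Huh7-si. Of the 55 genes, 7 had no reads in either library (CDH11, CDH13, CDH20, CDHR1, DSC1, PCDH15 and PCDH18) and 12 had between 1 and 9 reads over both, which leaves 36 with at least 10 reads. Of these 36, 17 (47.2%) were at least 2-fold higher in Huh7-si and 0 at least 2-fold lower. Over all genes with at least 10 reads, 15.2% were at least 2-fold higher and 1.81% at least 2-fold lower. The median log2 fold change, with 0.5 reads added to each count, was 0.88 over the 36 cadherins and 0.21 over all genes. A log2 fold change above 0 was seen for 34 of the 36, and the counting interval lay wholly above 0 for 25 and wholly below for 0. Over all 17921 genes with at least 10 reads, 11619 had a log2 fold change above 0 and 7389 an interval wholly above 0. Among the 8373 protein-coding genes in the length range of the cadherins, 6414 were above 0 and 4763 had an interval wholly above 0. For 6 genes, CDH6, CDH26, CELSR3, FAT1, PCDH9 and PCDH17, the whole interval lay past 2-fold. Scaling by edgeR's TMM, which weighs the libraries on genes that differ little, lowered all log2 fold changes by the same amount (a shift of -0.22). It left 10 of the 36 past 2-fold, 29 above 0 and 0 past 2-fold lower. The shift applies to all genes alike, so the all-gene numbers above, without TMM, are no background to these counts. Together the 55 genes took 366 CPM in Huh7-NC against 678 CPM in Huh7-si.

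**Figure D1:**
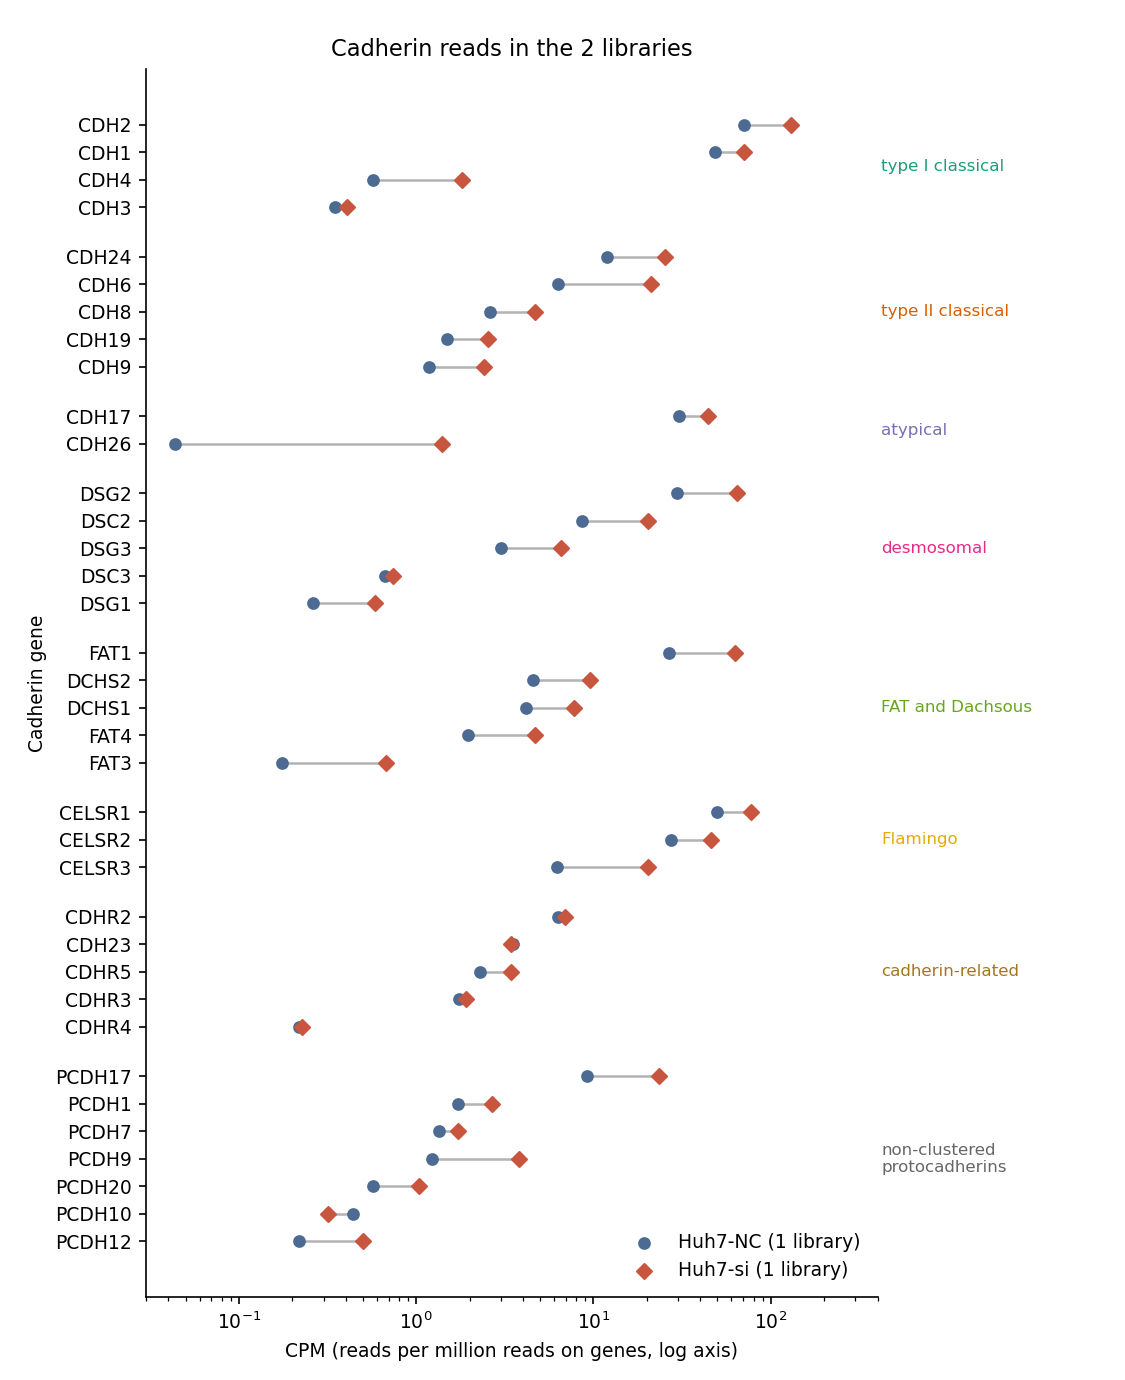
Level in CPM (log axis) of the 36 cadherins with at least 10 reads, by family, with circles for Huh7-NC and diamonds for Huh7-si, 1 library each. The diamond is to the right of the circle for 34 genes, and CDH23 and PCDH10 are the exceptions.

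The type I classical cadherins, which form the adherens junctions of epithelial and neural cells, gave the cadherins with the most reads. CDH2, N-cadherin, had 1620 reads in Huh7-NC against 2869 in Huh7-si (log2 fold change 0.87, 0.79 to 0.96). CDH1, E-cadherin, had 1101 and 1564 reads, a log2 fold change of 0.56 (0.44 to 0.67). Both were higher in Huh7-si and neither reached 2-fold. The ratio of CDH2 to CDH1 reads, which no scaling between libraries can alter, was 1.47 in Huh7-NC against 1.83 in Huh7-si, 1.25 times as high (1.13 to 1.38). CDH4, R-cadherin, had 13 and 40 reads, a log2 fold change of 1.67 (0.74 to 2.70). CDH3 had under 10 reads in each library, and CDH15 had 4 reads in Huh7-NC against 0 in Huh7-si.

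Type II cadherins resemble the classical ones but lack their HAV recognition letters, and most are known from neural or mesenchymal cells. CDH6, K-cadherin of the kidney, had 145 reads in Huh7-NC against 464 in Huh7-si (log2 fold change 1.73, 1.46 to 2.01). Relative to CDH2 within each library, CDH6 reads went from 0.0895 to 0.162, 1.81 times as high (1.48 to 2.21). CDH24 had 273 and 559 reads (1.08, 0.87 to 1.30), and CDH9 had 27 and 53 reads (1.02, 0.33 to 1.75). CDH8 had 60 and 104 reads and stayed under 2-fold (0.84, 0.37 to 1.33), as did CDH19. All 5 type II cadherins with at least 10 reads had intervals above 0. Of these, 3 were past 2-fold (60%, against 15.2% of all genes), of which CDH6 stayed so with TMM scaling. The vascular cadherin CDH5 had 2 reads in Huh7-NC against 0 in Huh7-si, and the mesenchymal cadherin CDH11 had none.

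Of the atypical cadherins, CDH17, the liver-intestine cadherin, had 695 reads in Huh7-NC against 973 in Huh7-si (log2 fold change 0.53, 0.39 to 0.68). CDH26, an epithelial cadherin known from allergic inflammation, had 1 read in Huh7-NC against 31 in Huh7-si. The CDH26 ratio was 32.07 with a counting interval from 5.34 to 1307.11, so its size is poorly fixed. CDH13 was at 0 and CDH16 had 2 reads, all in Huh7-NC.

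Desmosomal cadherins were higher in Huh7-si by nearly the same fold where reads were plentiful. DSG2, the desmoglein of simple epithelia and the heart, had 674 reads in Huh7-NC against 1427 in Huh7-si (log2 fold change 1.13, 1.0 to 1.27). DSC2, the desmocollin it pairs with in the same tissues, had 198 and 450 reads (1.23, 0.99 to 1.48). The ratio of DSG2 to DSC2 reads was 3.40 in Huh7-NC against 3.17 in Huh7-si, 0.93 times as high (0.77 to 1.13), so the counting interval held both a somewhat lower and a somewhat higher ratio. DSG3, known as the antigen of pemphigus vulgaris, had 68.4 and 145 reads (1.13, 0.72 to 1.58). DSG1, the desmoglein of the upper epidermis, had 6 and 13 reads and its interval held 0. DSC3 had 15.2 and 16.4 reads, a log2 fold change of 0.16 (-0.97 to 1.26). Altogether, 4 of 5 desmosomal cadherins with at least 10 reads were past 2-fold (80%, against 15.2% of all genes). With TMM scaling DSC2 alone was, while DSC1 was at 0 and DSG4 had 1 read. Of the 11 cadherins on chromosome 18, which hold all 7 desmosomal genes and CDH2, 7 had at least 10 reads and 4 were past 2-fold, all 4 of them desmosomal.

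**Figure D2:**
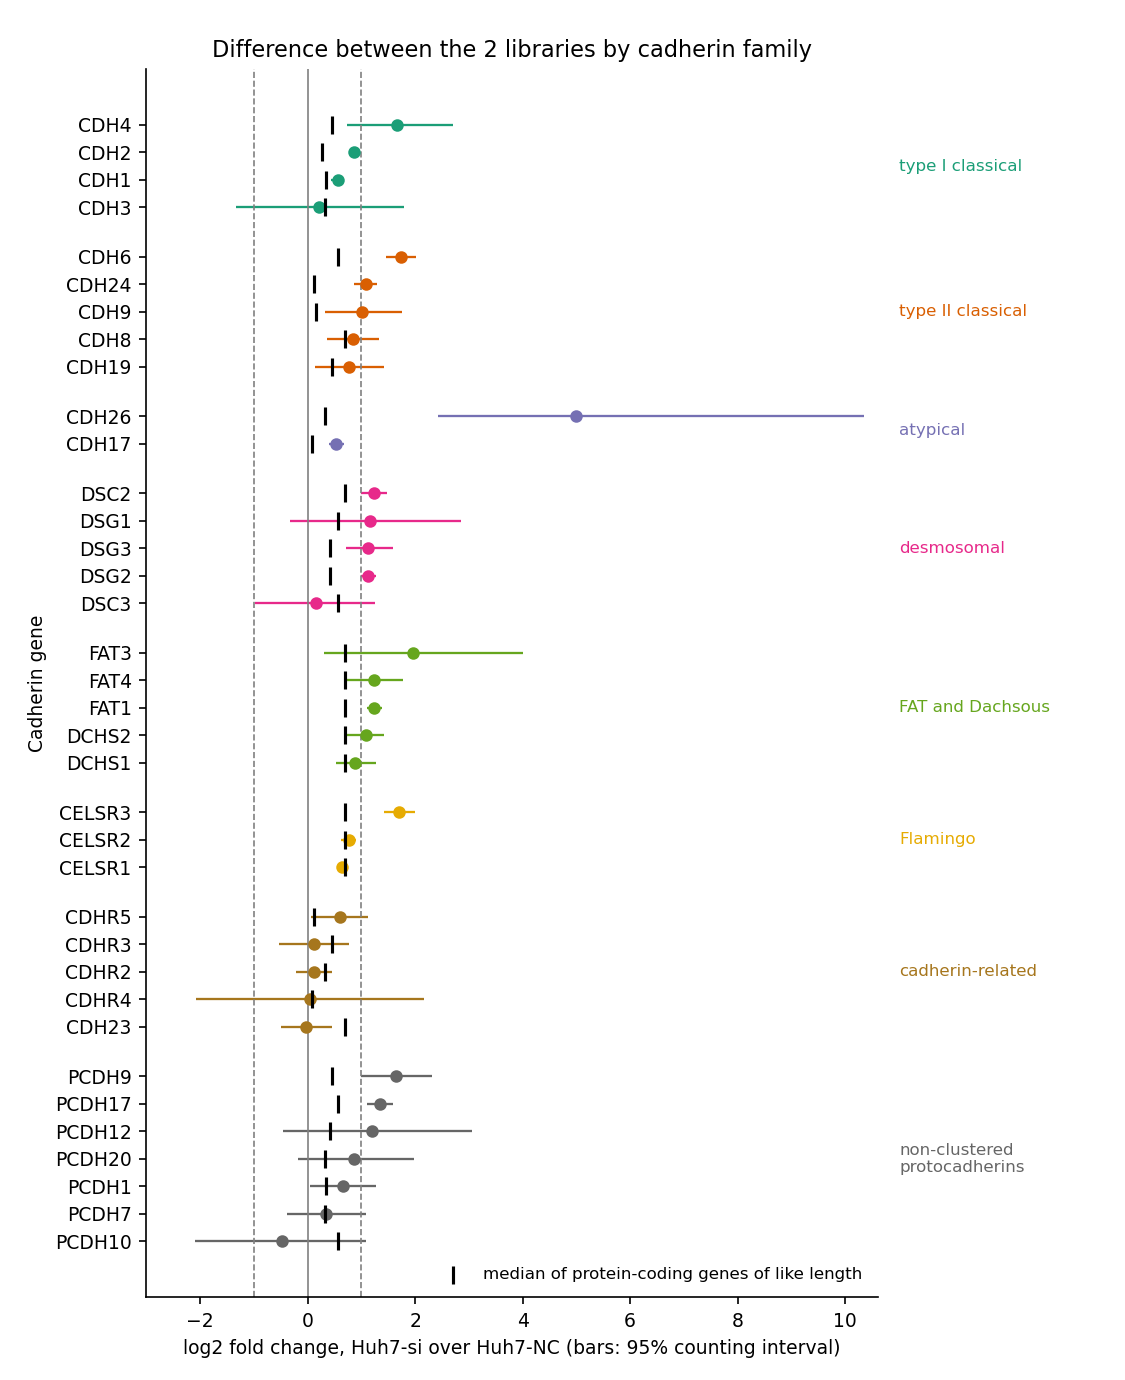
Log2 fold change, Huh7-si over Huh7-NC, of the 36 cadherins with at least 10 reads, by family. Bars are 95% counting intervals, black ticks the median of protein-coding genes of like length, and dashed lines 2-fold. None of the 5 cadherin-related genes and 17 genes of the other families lie at or past the right dashed line.

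FAT and Dachsous cadherins are receptor and ligand of a growth and polarity pathway first worked out in flies. Of 5 measured genes, 4 were past 2-fold (80%, against 15.2% of all genes), and 3 (FAT1, FAT3 and FAT4) with TMM scaling. All 5 are long, and of 705 protein-coding genes from 8940 bases, 202 were at least 2-fold higher. Less the median of those long genes, FAT3 alone of the 5 was past 2-fold. FAT1, which had the most reads of the FAT and Dachsous genes, had 610 in Huh7-NC against 1397 in Huh7-si (log2 fold change 1.24, 1.11 to 1.38). FAT4, the receptor for DCHS1, had 45 and 103 reads (1.24, 0.73 to 1.78). DCHS2 had 104 and 212 reads (1.08, 0.73 to 1.43), and DCHS1 had 95.5 and 171 reads, short of 2-fold (0.89, 0.53 to 1.27). By reads, the receptor and ligand genes thus lay in a narrow range of log2 fold change, apart from FAT3. By TPM the range was wider, with FAT1 at 0.79, DCHS1 at 1.09, FAT4 at 1.35 and DCHS2 at 1.82. FAT3 was at 4 and 15 reads (1.96, 0.31 to 4.01), but its TPM was 0.35 in Huh7-NC against 0.34 in Huh7-si. FAT2 had 1 and 6 reads.

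The Flamingo cadherins, 7-pass membrane proteins of the planar polarity complex, were unequal. CELSR1 had 1137 reads in Huh7-NC against 1718 in Huh7-si (log2 fold change 0.64, 0.54 to 0.75). CELSR2 had 623 and 1023 reads (0.77, 0.62 to 0.91). CELSR3, known mostly from neurons, had 142 and 448 reads (1.71, 1.43 to 1.99). The CELSR3 interval did not meet those of the other two.

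Cadherin-related genes of the brush border and of the hair cell had the lowest median log2 fold change of these families, 0.12. CDHR2, protocadherin of the intermicrovillar links, had 145 reads in Huh7-NC against 152 in Huh7-si (log2 fold change 0.12, -0.22 to 0.46). CDHR5, its binding partner, had 52 and 76 reads (0.60, 0.07 to 1.13). CDH23, which forms the tip link of hair cells with PCDH15, had 80 and 76 reads (-0.02, -0.50 to 0.45), and PCDH15 had none. None of the 5 measured genes was past 2-fold, and 4 of the 5 log2 fold changes lay above 0, or 1 of 5 with TMM scaling. Their summed level was 14.1 CPM in Huh7-NC against 15.9 CPM in Huh7-si. CDHR2 shares 173 of its 5348 exonic bases in GENCODE release 29 with GPRIN1, a gene on the opposite strand with 221 and 214 reads, and without strand information reads in the shared stretch cannot be told apart.

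Non-clustered protocadherins are cadherins whose tails lack the catenin-binding sites of the classical ones. Of 7 measured genes, 3 were past 2-fold (42.9%, against 15.2% of all genes). PCDH17 had 210 reads in Huh7-NC against 516 in Huh7-si (log2 fold change 1.35, 1.11 to 1.58). PCDH9 had 28 and 84.3 reads (1.64, 1.0 to 2.31). PCDH12, at 5 and 11 reads, had an interval holding 0, and it shares 108 exonic bases with RNF14 on the opposite strand, which had 681 and 622 reads. PCDH10 was the only protocadherin of these with fewer reads in Huh7-si, 7 against 10, with an interval from -2.10 to 1.08. The clustered protocadherins, which lie outside the name rule, were close in both measures: 17 of 44 with at least 10 reads (38.6%) were at least 2-fold higher and 0 at least 2-fold lower, with a median log2 fold change of 0.86.

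The genes nearest the 2-fold line were CDH9 at 2.03-fold, DCHS2 at 2.11-fold and CDH24 at 2.12-fold on the inside, and DCHS1 at 1.85-fold, CDH2 at 1.83-fold and PCDH20 at 1.83-fold on the outside. Their intervals all spanned the line except that of CDH2, which ended at 1.95-fold. The count of 17 therefore rests in part on genes whose reads do not place them on one side. With at least 100 reads over both libraries, a minimum chosen after seeing the data, 11 of 21 cadherins (52.4%) were at least 2-fold higher, against 7.45% of all genes with as many reads.

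Cadherins are long genes, and the difference between the libraries grew with gene length across the table. Over 14088 protein-coding genes with at least 10 reads, Spearman's rho between listed length and log2 fold change was 0.46. The median log2 fold change went from -0.365 in the shortest of 20 length bins to 0.69 in the longest. The 36 cadherins had a median length of 6372 bases (2528 to 19504), and rho over them was 0.36. Of the 12 shortest, 3 were past 2-fold, against 7 of the 12 of middle length and 7 of the 12 longest. Among 8373 protein-coding genes of the cadherins' length range, 11.9% were at least 2-fold higher in Huh7-si, and their median log2 fold change was 0.32. They were shorter than the cadherins, with a median length of 4342 bases, so this share is not one at equal length. In the longest bin, from 8940 bases, 202 of 705 genes were at least 2-fold higher. All FAT, Dachsous and Flamingo genes have lengths in that bin. These points share both libraries and are no replicates.

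**Figure D3:**
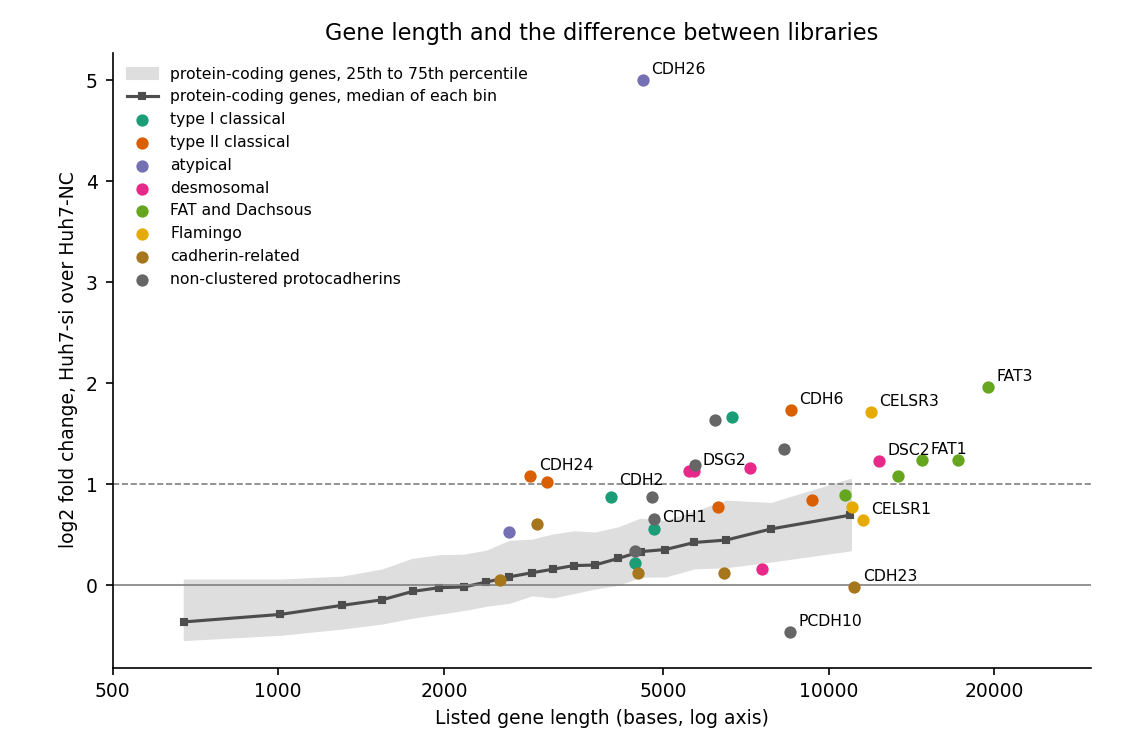
Listed gene length in bases (log axis) against log2 fold change, Huh7-si over Huh7-NC. Coloured points are the 36 cadherins by family, squares the median of each of 20 bins of protein-coding genes, and the grey band their 25th to 75th percentile. The band climbs from left to right, and 28 of the 36 cadherins lie above the median of their bin.

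Measured against the median of protein-coding genes of like length, the cadherins kept a smaller excess. Their median log2 fold change was then 0.49, and 28 of 36 lay above 0. Past 2-fold on this scale were 6: CDH26 (4.11), CDH4 (1.19), PCDH9 (1.18), CDH6 (1.17), FAT3 (1.14) and CELSR3 (1.01). Of all 17921 genes with at least 10 reads, 9991 lay above 0 on this scale and 2233 were past 2-fold higher. Among the 8373 protein-coding genes of the cadherins' length range, these numbers were 4183 and 466. CDH24, a short gene of 2873 bases, was at 0.96, and DSG2 and DSG3 were both at 0.71. CDH2 was at 0.61 and CDH1 at 0.20. FAT1 and FAT4, among the longest, were at 0.55 and 0.54, and CELSR1 was at -0.05, level with genes of its length. The part of length in these differences was not tested beyond this subtraction. Ratios of reads within a library were not adjusted for length. The like-length medians were 0.56 for CDH6 and 0.26 for CDH2, and 0.42 for DSG2 and 0.16 for JUP.

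By TPM, the measure that is scaled for length and allows levels to be compared between genes, CDH2 led with 23.0 in Huh7-NC against 47.0 in Huh7-si. CDH1 followed with 12.3 and 20.5, FAT1 with 11.5 and 20, and CDH17 with 10.8 and 17.0. These genes held the first 4 places by TPM in both libraries, but by reads per listed base FAT1 stood 8th in Huh7-NC and DSG2 4th. CELSR3 moved from place 16 to 11, whereas CDHR2 moved from 10 to 14 and CDH23 from 11 to 16. CDH2 made up 21.0% of the summed cadherin TPM in Huh7-NC and 21.8% in Huh7-si, and 17 and 22 cadherins had a TPM of at least 1. Neighbours in this order such as FAT1 and CDH17 cannot be separated with 1 library each.

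**Figure D4:**
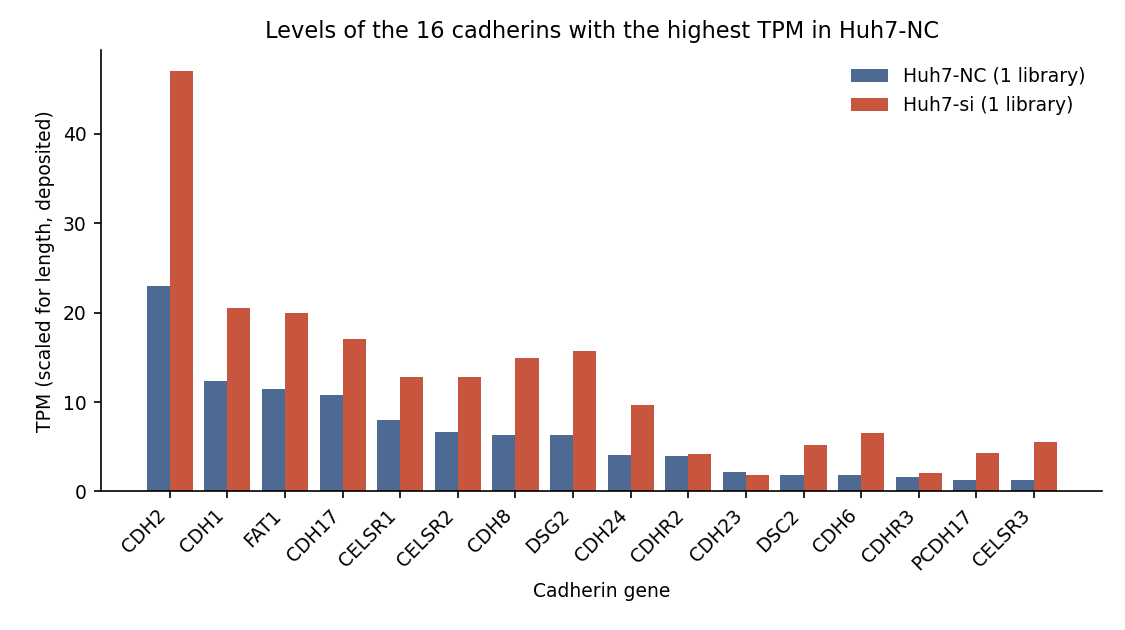
TPM of the 16 cadherins with the highest TPM in Huh7-NC, with 1 bar for each library. CDH2 is highest in both, and the Huh7-si bar is the taller for all but CDH23.

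Reads and TPM differed for some cadherins, and the cause was not tested. The number of bases that the reads and TPM of a gene imply was set to the listed length at the median gene. For 10681 protein-coding genes with at least 100 reads in each library, it was between 42.9% and 171% of the listed length for all but the lowest and highest 5% in Huh7-NC. For CDH8 it was 619 of 9316 bases in Huh7-NC and 538 in Huh7-si, or 6.64% and 5.78%. CDH8 stood 7th by TPM, at 6.29, but 22nd by reads per listed base, on 60 reads. For FAT1 it was 23.3% and 36.7%, and its log2 fold change was 1.24 by reads and 0.79 by TPM. For FAT3 it went from 3.8% to 17.5% on 4 and 15 reads, and its log2 fold change of 1.96 by reads was -0.04 by TPM. CDH19 went the other way, from 106% to 57.9%, with 0.77 by reads and 1.85 by TPM. CDH1 and CDH2 were steady, at 120% and 123% and at 114% and 118%.

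The partner genes of the cadherins had lower list medians than the cadherins, and the shares past 2-fold of the first 3 lists are to be read against the 15.2% of all genes. In the list of catenins and adherens junction genes, 3 of 14 with at least 10 reads (21.4%) were at least 2-fold higher in Huh7-si and 0 at least 2-fold lower, with a median log2 fold change of 0.37. After subtraction of the like-length median, this list was at -0.02, with 6 of the 14 above 0. Beta-catenin (CTNNB1), which binds the tail of classical cadherins, had 10658 reads in Huh7-NC against 10770 in Huh7-si (0.06, 0.03 to 0.10). Alpha-catenin (CTNNA1), the link to actin, had 5815 and 6016 reads (0.10, 0.05 to 0.15). CTNND1, p120-catenin, which keeps cadherins at the surface, had 5746 and 9028 reads (0.70, 0.65 to 0.75). Its relative ARVCF had 728 and 1514 reads (1.11, 0.98 to 1.23) and its binding protein PLEKHA7 had 296 and 617 (1.11, 0.91 to 1.31). NECTIN2, an adhesion protein of the same junction, had 5661 and 5686 reads, and NECTIN4, with 3 and 9 reads, had an interval holding 0. With TMM scaling ARVCF and PLEKHA7 were at 0.89, under 2-fold, and CTNNB1, CTNNA1 and NECTIN2 turned to -0.16, -0.12 and -0.16. Relative to CTNNB1 reads in the same library, CDH2 went from 0.152 to 0.266, 1.75 times as high (1.64 to 1.87), and CDH1 from 0.103 to 0.145, 1.41 times as high (1.29 to 1.53).

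Of the desmosomal plaque genes, 1 of 7 with at least 10 reads (14.3%, against 15.2% of all genes) was past 2-fold, with a median log2 fold change of 0.45, or 0.12 less that of genes of like length. Plakoglobin (JUP), which binds desmosomal cadherins, had 4949 reads in Huh7-NC against 4817 in Huh7-si (0.01, -0.05 to 0.07), or -0.21 with TMM scaling. Desmoplakin (DSP), the link to keratin, had 2684 and 4740 reads (0.87, 0.80 to 0.94), and periplakin (PPL) had 284 and 659 (1.26, 1.06 to 1.47). PERP and PKP2 had 2592 and 2824 reads and 1203 and 1589 reads. The ratio of DSG2 to JUP reads went from 0.136 to 0.296, 2.18 times as high (1.97 to 2.41). The simple epithelial markers KRT8, KRT18, KRT19 and EPCAM summed to 4398 CPM in Huh7-NC against 3199 CPM in Huh7-si, and 3 of the 4 were lower. These are short genes, and their median log2 fold change of -0.31 was -0.11 after subtraction of the like-length median.

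Partners of the polarity cadherins had 3 of 13 genes (23.1%, against 15.2% of all genes) past 2-fold and a median log2 fold change of 0.55, or 0.23 less that of genes of like length. The receptor FZD6 had 45 reads in Huh7-NC against 138 in Huh7-si (1.67, 1.17 to 2.18), and FJX1, related to the kinase that modifies Fat and Dachsous in flies, had 20 and 39 (1.01, 0.20 to 1.87). PRICKLE1 had 8 and 16 reads, with an interval holding 0, and with TMM scaling FZD6 alone was past 2-fold. The genes of this list with the most reads, DVL3, DVL2, DLG5 and DVL1, lay between -0.01 and 0.59. Of 8 proteases that cleave cadherins or their precursors, none was past 2-fold and the median was 0.34. FURIN, which removes the cadherin prodomain, had 30252 and 20770 reads (-0.49, -0.52 to -0.47). ADAM10, the sheddase of E- and N-cadherin, had 1396 and 2150 reads (0.67, 0.57 to 0.77). APH1A and NCSTN, subunits of gamma-secretase, had log2 fold changes of -0.15 and 0.45.

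Of 8 repressors of E-cadherin, 5 had at least 10 reads. ZEB2 had 17 reads in Huh7-NC against 133 in Huh7-si (3.02, 2.28 to 3.84), past 2-fold and higher. SNAI3 had 14 and 4 reads (-1.76, -3.82 to -0.09), past 2-fold and lower. TCF3, ZEB1 and SNAI1 had 4306 and 4821, 340 and 518, and 333 and 323 reads. TWIST1 and TWIST2 had none, and the list's median log2 fold change was 0.21. E-cadherin reads were higher in the same library in which ZEB2 reads were higher, and a link between them was not tested. The log2 fold change of CDH1 was 0.33 with TMM scaling and 0.20 less the like-length median.

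**Figure D5:**
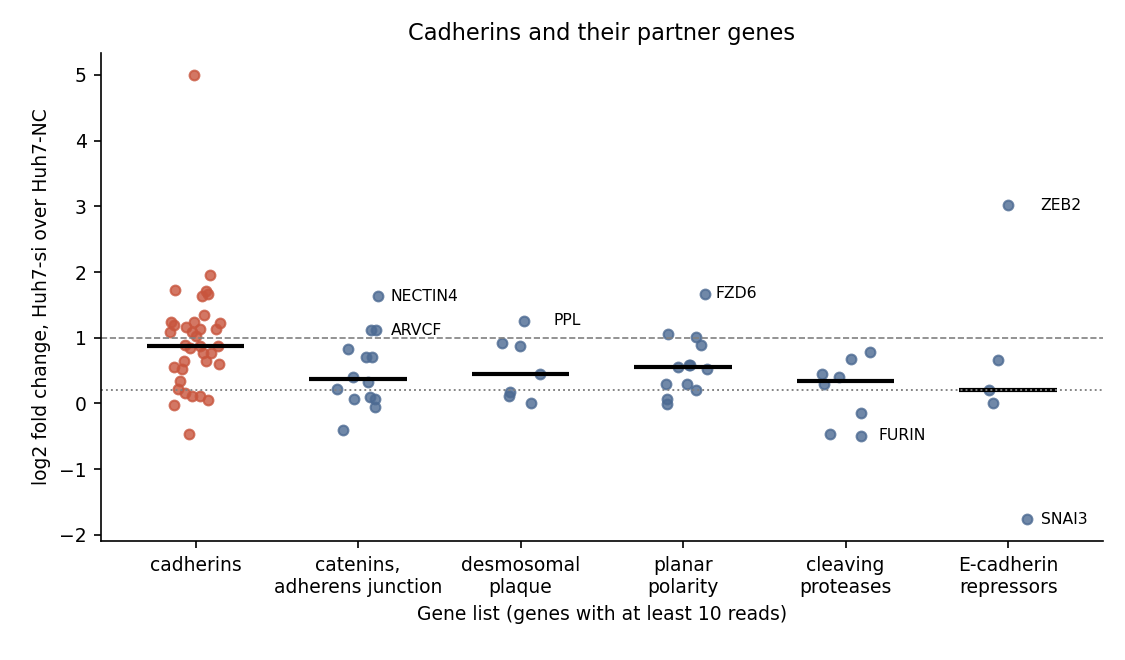
Log2 fold change, Huh7-si over Huh7-NC, of the 36 cadherins and of the genes with at least 10 reads in 5 lists of partner genes. Each point is a gene, black bars are list medians, the dashed line is 2-fold and the dotted line the median of all genes, 0.21. The cadherin bar stands at 0.88, above those of the 5 lists, which lie between 0.21 and 0.55.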

How the data were processed

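RNA-seq of Huh7 cells was analysed, with 1 library in each of 2 groups, so no replicate pairs or batches exist. The authors deposited 1 table of 61541 genes giving, per library, a TPM value and an estimated count of reads with no scaling for depth. The authors' fold, log2, p-value and adjusted p columns were not used. No other per-sample columns were left out (0). The submitters' processing notes name Bowtie2 2.0.6, TopHat2 2.0.12 and GRCh37, while 94.8% of the gene identifiers, and those of all 55 cadherins, are in GENCODE release 29 (GRCh38), so the build of the counts is uncertain. The counting tool, annotation and strandedness are not given in the sources used here. Estimated counts (fractional for 15 cadherins) were rounded for the exact intervals only. CPM and folds were computed on the whole table, and calls used genes with at least 10 reads over both libraries and 2-fold.

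The cadherins and all gene lists were chosen with earlier results of these data known. Cadherins with at least 100 reads in either library, or with at least 20 over both and past 2-fold, were named with their reads, as were partner genes past 2-fold or among the up to 4 with the most reads in their list. Other genes given with reads were chosen after their values were seen. So were the ratios within a library, which have exact conditional intervals. Like-length medians came from 20 bins of protein-coding genes. The intervals were tested on simulated reads drawn independently (Poisson), as the intervals assume. That test therefore cannot speak to dependence between reads or to spread between replicates. Alternatives were the scaling, filters, pseudocount, fold, interval rule and length. Protein features planned for the cadherins were not analysed here. Python 3.11.15, NumPy 2.4.6, pandas 2.3.3, SciPy 1.17.1, matplotlib 3.10.9, R 4.3.3, edgeR 4.0.16 and DESeq2 1.42.0 were used.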

Additional observations from a re-analysis of the deposited data

How the results depend on the processing

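No paired analysis was possible because each group has 1 library. The 17 cadherins at least 2-fold higher in Huh7-si became 10 with edgeR's TMM, 10 by the median of ratios of DESeq2 and 11 by upper quartile, which shifted all log2 fold changes by -0.22, -0.21 and -0.19. They became 9 with 1 CPM added, 26 at 1.5-fold, 6 less the like-length median, and 11 with at least 100 reads over both libraries, chosen after seeing the data. The number was 20 by TPM, 24 with any read, 15 with the interval on one side of 0 and 13 where each library had to hold 10 reads. Of all 17921 genes with at least 10 reads, 2233 were past 2-fold higher less the like-length median. With the interval on one side of 0, 2248 were. With at least 100 reads, the share of all genes was 7.45%. For the other alternatives no share of all genes is given here, so those counts are not to be read against the 15.2%. The 0 lower cadherins became 3 with any read (CDH5, CDH15 and CDH16, with 2, 4 and 2 reads, all in Huh7-NC) and stayed at 0 under the other alternatives. The median of 0.88 became 0.65, 0.67 and 0.69 under those scalings, 1.06 by TPM, 0.95 with any read, 0.64 with 1 CPM added, 0.49 less the like-length median and 1.07 with at least 100 reads. BRF2 went from -1.77 to -1.99, -1.97, -1.95 and, by TPM, -1.59. FAT3 turned from 1.96 to -0.04 by TPM. Under TMM, 5 other log2 fold changes, none past 2-fold, turned negative (CDH3, CDHR2, CDHR3, CDHR4 and DSC3). The cause of these moves was not tested beyond the shifts given. Precision was limited by reads: 29 of the 36 cadherins had at least 10 in each library.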

Other observations

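The cadherins barely read in these cells were of a mixed kind. The 12 genes with 1 to 9 reads over both libraries were CDH5, CDH7, CDH10, CDH12, CDH15, CDH16, CDH18, CDH22, DSG4, FAT2, PCDH8 and PCDH19. CDH10, a type II cadherin known from the brain, had the most of them, with 1 read in Huh7-NC against 8 in Huh7-si, a ratio of 8.28 with a counting interval from 1.11 to 367.25. CDH5, CDH15 and CDH16 had reads in Huh7-NC alone, and CDH7, CDH12, CDH18, DSG4 and PCDH8 in Huh7-si alone, all at or near the limit that a count of 0 allows.

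Antisense genes sharing exonic bases with cadherins were themselves hardly read. DCHS1-AS1, which shares 820 of the 10765 exonic bases of DCHS1, had 6.52 reads in Huh7-NC against 9.48 in Huh7-si. DSG2-AS1 and DSG1-AS1 had between 1 and 3 reads in each library.

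The cadherin-related and the desmosomal genes had nearly the same summed TPM in Huh7-NC. The 5 measured cadherin-related genes held 9.03 of the 110 summed cadherin TPM in Huh7-NC and 10.3 of the 216 in Huh7-si. The 7 desmosomal genes, at 9.06 TPM in Huh7-NC, were at 22.9 TPM in Huh7-si. By reads the 2 families were unlike in Huh7-NC, at 14.1 CPM for the cadherin-related and 42.1 CPM for the desmosomal genes. For CDH23 and CDHR3 the length implied by reads and TPM was 21.3% and 25.6% of the listed length in Huh7-NC.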
